A study of Mus musculus with 4 samples.

Results

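Ubiquitin is fixed to proteins by a relay of enzymes. An activating enzyme (E1) passes it to a conjugating enzyme (E2), which works with a ligase (E3) to place it on a substrate, and deubiquitinases take it off again. Most E2 enzymes carry Ube2 names, and E2 enzymes set much of the kind of chain that is built, while the ubiquitin-specific proteases, with Usp names, form the largest deubiquitinase family. In liver, as in other tissues, this balance governs the turnover of enzymes, receptors and transcription factors, and the nuclear receptor SHP itself is turned over through ubiquitin.

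SHP binding at these genes was examined in 87 protein-coding genes of GENCODE M1, the mouse annotation on mm9, out of 22380 protein-coding genes in all. They were chosen by name: 36 have symbols starting with Ube2 and 51 have symbols starting with Usp and a digit. A peak was assigned to a gene when it lay within 5 kb of the gene body. In a few cases the name is wider than the function, since Usp6nl encodes a GTPase-activating protein for Rab5 and not a deubiquitinase, and Ube2cbp, listed in RefSeq also as Ube3d, is a ligase that binds an E2.

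SHP, the product of Nr0b2, lacks the DNA-binding domain of other nuclear receptors and reaches chromatin through partner proteins. Wildtype male C57BL/6 mice aged 8 to 12 weeks were fasted for 12 h and injected through the tail vein with vehicle or with FGF19, the intestinal hormone that signals the fed state to the liver, at 1 mg/kg, and livers were taken 2 h later. Each group pooled the ChIP material of 3 mice, which leaves 1 SHP ChIP library and 1 input library for vehicle and the same for FGF19. Within a group nothing can therefore be said of the spread between mice, and differences between the lists carry no p-value. The ChIP libraries held 15473647 tags with vehicle and 13444078 with FGF19, the inputs 16164473 and 17367587, and the lists 1508 and 3155 peaks. The peak lists hold no expression values, so neither the liver identity of the samples nor the response of these genes was measured.

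Stretches of DNA at the summits of 11 peaks are shown first. The groups described below were set by gene role and by list, not by these sequences. Each is the part of a window of 100 bp on either side of the summit that is free of annotated exons, on mm9, 5′ to 3′ on the strand of the named gene. Capitals mark matches on either strand to AANATGGC, to CCCCGCCCC (SP1), to ATTGGC (NF-Y), to CCGGAAG (ETS factors) or to AGGTCA (a nuclear receptor half-site). AANATGGC, called the YY1/SRE core below, is part of a motif that the paper gives as bound by YY1 and also identified for SREBP-2. The name does not mean that a sterol regulatory element was searched for. The first group holds the genes for chains linked through lysine 63 of ubiquitin, Ube2n and its catalytically inactive partners Ube2v1 and Ube2v2, each with a peak in the FGF19 list only. Ube2d3, a broad E2, follows as a promoter with a peak in both lists.
Ube2n, chr10:94977511-94977711, plus strand: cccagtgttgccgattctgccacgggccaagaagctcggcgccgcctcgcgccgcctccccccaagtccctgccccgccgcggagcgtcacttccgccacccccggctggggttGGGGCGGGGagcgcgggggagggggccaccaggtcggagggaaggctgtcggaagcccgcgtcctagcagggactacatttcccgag
Ube2v1, chr2:167457596-167457707, minus strand: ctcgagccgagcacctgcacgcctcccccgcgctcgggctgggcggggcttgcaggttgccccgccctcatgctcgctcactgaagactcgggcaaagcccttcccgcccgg
Ube2v2, chr16:15594271-15594471, minus strand: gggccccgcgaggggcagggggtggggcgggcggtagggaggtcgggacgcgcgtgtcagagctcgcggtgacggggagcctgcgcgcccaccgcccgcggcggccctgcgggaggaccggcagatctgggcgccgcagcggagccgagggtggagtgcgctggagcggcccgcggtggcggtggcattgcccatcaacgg
Ube2d3, chr3:135101059-135101259, plus strand: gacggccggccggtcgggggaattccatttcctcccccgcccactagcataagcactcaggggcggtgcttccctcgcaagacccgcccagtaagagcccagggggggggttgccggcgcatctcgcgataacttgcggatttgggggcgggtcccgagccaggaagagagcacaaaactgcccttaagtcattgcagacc
Among these 4 stretches only that of Ube2n holds a match to a searched motif, an SP1 match downstream of the summit.

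The Usp sequences show the windows with the YY1/SRE core, here at Usp7, Usp34 and the 3′ side of Usp33, and then a window with 3 kinds of promoter motif at Usp32.
Usp7, chr16:8738891-8739091, minus strand: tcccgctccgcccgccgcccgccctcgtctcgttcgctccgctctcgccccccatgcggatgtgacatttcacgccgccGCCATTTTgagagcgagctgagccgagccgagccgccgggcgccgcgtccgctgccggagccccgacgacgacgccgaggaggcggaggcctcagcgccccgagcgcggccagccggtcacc
Usp34, chr11:23206141-23206341, plus strand: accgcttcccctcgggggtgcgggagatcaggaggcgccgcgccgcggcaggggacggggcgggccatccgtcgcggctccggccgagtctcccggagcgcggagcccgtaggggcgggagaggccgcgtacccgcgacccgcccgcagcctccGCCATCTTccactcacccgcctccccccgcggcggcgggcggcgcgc
Usp33, peak at the start of Zzz3, chr3:152059410-152059610, plus strand: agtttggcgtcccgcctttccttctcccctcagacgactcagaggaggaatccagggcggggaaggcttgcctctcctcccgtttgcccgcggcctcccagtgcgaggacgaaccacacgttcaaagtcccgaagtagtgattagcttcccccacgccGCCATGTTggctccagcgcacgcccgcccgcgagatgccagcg
Usp32, chr11:84953664-84953847, minus strand: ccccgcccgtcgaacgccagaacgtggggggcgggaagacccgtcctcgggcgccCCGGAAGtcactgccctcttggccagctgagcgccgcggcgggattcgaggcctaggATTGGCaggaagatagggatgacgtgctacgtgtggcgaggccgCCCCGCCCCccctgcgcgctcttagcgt
The core reads as its reverse complement at all 3 genes, as GCCATTTT, GCCATCTT and GCCATGTT.

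The last 3 stretches also come from FGF19 peaks. Usp1 (its upstream peak) and Usp46 belong to the deubiquitinases that work with the cofactor WDR48, and Ube2j2, an E2 of the endoplasmic reticulum, has the only member window with a nuclear receptor half-site and also holds a YY1/SRE core outside the printed stretch.
Usp1, chr4:98589831-98590031, plus strand: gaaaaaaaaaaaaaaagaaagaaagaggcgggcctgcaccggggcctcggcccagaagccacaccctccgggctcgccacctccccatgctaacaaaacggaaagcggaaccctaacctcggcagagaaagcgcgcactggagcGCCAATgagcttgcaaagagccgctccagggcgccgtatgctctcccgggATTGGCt
Usp46, chr5:74464143-74464274, minus strand: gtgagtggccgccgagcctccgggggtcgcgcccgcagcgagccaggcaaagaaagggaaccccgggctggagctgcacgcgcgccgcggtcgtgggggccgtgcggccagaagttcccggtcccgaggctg
Ube2j2, chr4:155317811-155317939, plus strand: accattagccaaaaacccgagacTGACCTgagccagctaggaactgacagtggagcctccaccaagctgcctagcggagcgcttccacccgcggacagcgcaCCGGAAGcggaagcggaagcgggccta

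SHP peaks lay near 39 of the 87 genes in at least 1 list. In the vehicle list 6 of 36 Ube2 genes (16.7%, Wilson 95% interval 7.87 to 31.9) and 7 of 51 Usp genes (13.7%, 6.81 to 25.7) had a peak, and in the FGF19 list 15 Ube2 genes (41.7%, 27.1 to 57.8) and 18 Usp genes (35.3%, 23.6 to 49.0) did. Over both families this was 13 genes (14.9%, 8.95 to 23.9) with vehicle and 33 genes (37.9%, 28.5 to 48.4) with FGF19. Of all protein-coding genes, 7.93% had a peak within 5 kb in the vehicle list and 16.3% in the FGF19 list. The share among the 87 genes was thus above that of all genes in both lists. The interval of the families together lay above the background value in each. With vehicle, the interval of each family alone held 7.93%. The genes are not independent draws, since some count through a shared peak or a peak at a neighbour. Members were chosen with earlier results of these data known, so the intervals describe the shares and do not test them. The Ube2 and Usp shares lay within each other's intervals in both lists. These intervals cover counting error over genes only. With the FGF19 list cut to the length of the vehicle list by smallest q-value, 7 Ube2 genes (19.4%, 9.75 to 35.0) and 13 Usp genes (25.5%, 15.5 to 38.9) had an FGF19 peak, against 8.06% of all protein-coding genes, and the Ube2 share was then below the Usp share.

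**Figure D1:**
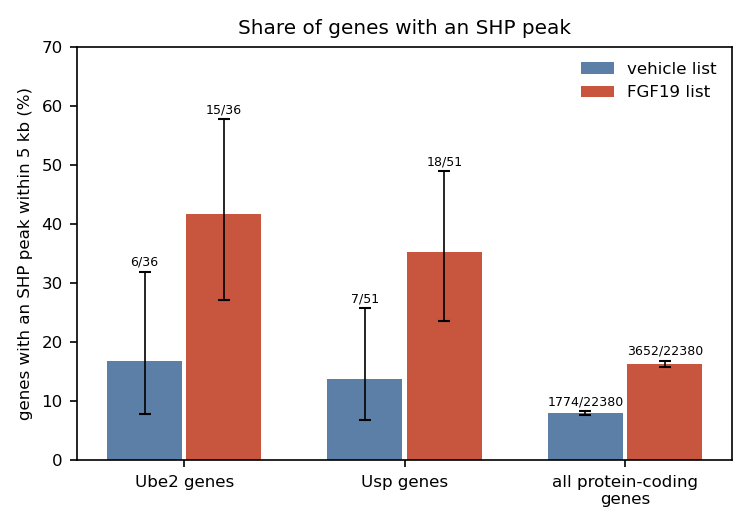
Percentage of Ube2 genes, Usp genes and all protein-coding genes with an SHP peak within 5 kb of the gene body (vertical axis), in the vehicle and the FGF19 list. Error bars are Wilson 95% intervals and the figures over the bars are genes with a peak of all genes in the set. With FGF19 the share was 41.7% of Ube2 genes and 35.3% of Usp genes, against 16.3% of all protein-coding genes.

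By list, 7 genes had a peak with both treatments (8.05%, against 4.31% of all protein-coding genes), 26 with FGF19 only (29.9%, against 12.0%) and 6 with vehicle only (6.90%, against 3.62%). The 7 genes in both lists were Ube2d1, Ube2d3, Ube2o, Usp20, Usp31, Usp33 and Usp6nl. Ube2c, Ube2d2, Ube2g2, Usp22, Usp25 and Usp36 were in the vehicle list only. The larger FGF19-only group held 12 Ube2 genes (Ube2cbp, Ube2e1, Ube2g1, Ube2j2, Ube2l3, Ube2m, Ube2n, Ube2q2, Ube2r2, Ube2v1, Ube2v2 and Ube2z) and 14 Usp genes (Usp1, Usp7, Usp8, Usp9x, Usp12, Usp15, Usp32, Usp34, Usp45, Usp46, Usp47, Usp49, Usp50 and Usp54). Absence from a list means only that no peak passed the q-value cutoff of 0.05 there.

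The 5 kb reach let in some peaks that sit at another gene's transcription start site (TSS). When the summit had to lie within 1 kb of a TSS of the gene itself, a rule added after seeing the data, 12 genes remained with vehicle (13.8%, against 5.52% of all protein-coding genes) and 30 with FGF19 (34.5%, against 12.5%). The gene lost with vehicle was Usp33, and those lost with FGF19 were Usp49, Usp50 and Usp54. The vehicle peak of Usp33 and an overlapping FGF19 peak lay beyond its 3′ end, 165 and 138 bp upstream of a TSS of Zzz3, while the peak at the promoter of Usp33 itself was in the FGF19 list only. The peak of Usp50 is that of the Usp8 promoter, counted for both genes, and that of Usp54 lay 40 bp from the TSS of 1810062O18Rik. The farthest peak inside the reach was this FGF19 peak of Usp33, at 2805 bp from the gene body. Just outside it, Ube2c and Ube2d2, both in the vehicle list only, had an FGF19 peak 6952 and 7481 bp away, and Usp4 had peaks of both lists 7564 to 8263 bp away, at the start of Gpx1.

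Of all protein-coding genes, 19.9% had a peak in at least 1 list, and the counts by role that follow are small and stand beside that share. Among the E2 genes of broad use, 9 of 15 had a peak. Ube2d1 and Ube2d3, which serve many RING ligases, and Ube2o, a large enzyme that joins E2 and E3 activity, were in both lists. Ube2e1, Ube2l3 (the E2 of HECT and RBR ligases), Ube2q2, Ube2r2 (an E2 of cullin ligases) and Ube2z (which takes ubiquitin from the activating enzyme Uba6) were in the FGF19 list only, and Ube2d2 in the vehicle list only. No peak was listed at Ube2e2, Ube2e3, Ube2h, Ube2k, Ube2q1 or Ube2w.

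The 3 genes for lysine-63 chains, Ube2n, Ube2v1 and Ube2v2, all had a peak with FGF19 and none with vehicle. The same held for the 3 Usp genes whose products are activated by WDR48, Usp1, Usp12 and Usp46. All 4 genes of the endosome and membrane group had an FGF19 peak: Usp8, which acts on receptors at endosomes, Usp9x, and the related Usp20 and Usp33. Usp20 and Usp33 also had a vehicle peak. Of all genes, 16.3% had an FGF19 peak and 12.0% were in the FGF19-only class. The groups are small, and no more is read from them than the count.

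For degradation from the endoplasmic reticulum, Ube2g1 and Ube2j2 were in the FGF19 list only, Ube2g2 was in the vehicle list only and Ube2j1 had no peak. Ube2m, the E2 for NEDD8, had an FGF19 peak, while Ube2f (NEDD8) and Ube2l6 (ISG15) had none. Ube2c, which starts chains for the anaphase-promoting complex, was in the vehicle list only, and its partner Ube2s had no peak. The DNA damage and chromatin E2 genes Ube2a, Ube2b and Ube2t had no peak in either list.

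Among the histone deubiquitinases 1 of 7 had a peak, Usp22 of the SAGA complex, in the vehicle list, a share near the 19.9% of all genes. Usp16, Usp21, Usp27x, Usp3, Usp44 and Usp51 had none. Usp7, which removes ubiquitin from MDM2 and p53, and Usp15, which also acts on splicing factors, were in the FGF19 list, whereas Usp10, Usp28, Usp4 and Usp39 had no peak. Usp36 of the nucleolus had a vehicle peak. No peak was listed at Usp14 and Usp5, which work at the proteasome and on free chains, at Usp18 (ISG15), Usp2 (a rhythmic gene in liver), Usp19 or Usp30. In the group with no role listed, 10 of 24 Usp genes had a peak and 14 had none (Usp9y, Usp11, Usp13, Usp17l5, Usp24, Usp26, Usp29, Usp37, Usp38, Usp40, Usp42, Usp43, Usp48 and Usp53). Of the Ube2 genes with no role listed, Ube2dnl, Ube2nl, Ube2ql1 and Ube2u had none.

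**Figure D2:**
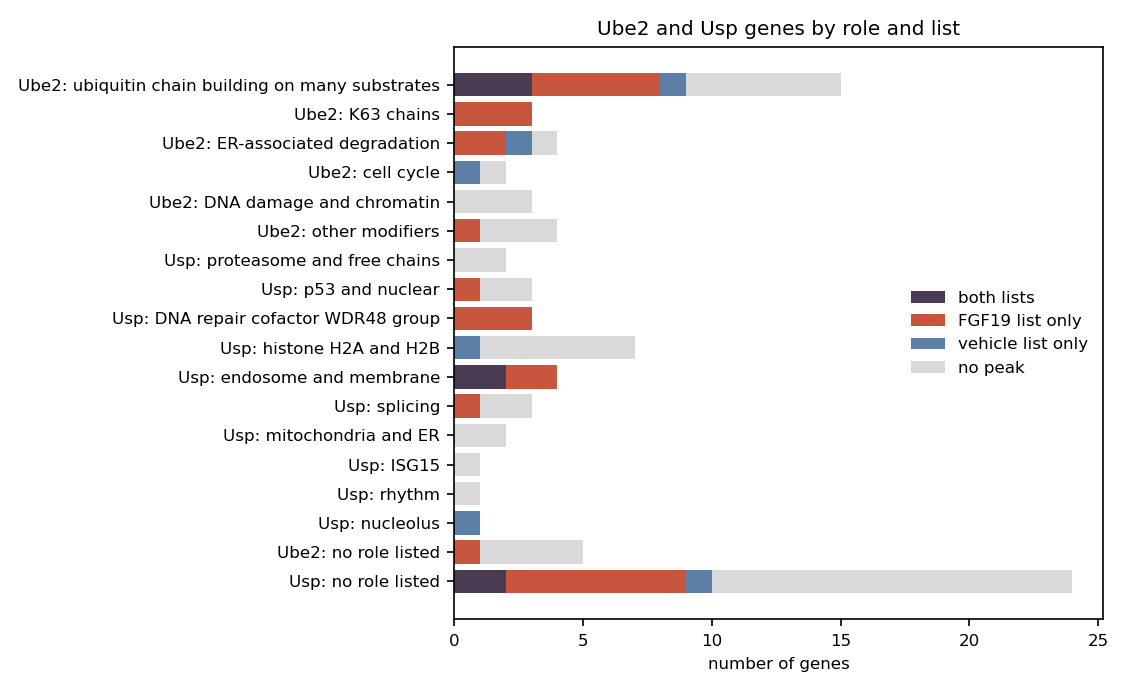
Number of Ube2 and Usp genes (horizontal axis) in each role group (vertical axis), coloured by the list in which a peak lay within 5 kb of the gene. All 3 lysine-63 chain genes and all 3 WDR48-group genes are in the FGF19 list only, and the group of E2 genes for DNA damage and chromatin has no peak. Of all protein-coding genes, 12.0% were in the FGF19 list only and 80.1% had no peak in either list. The groups are too small to read more than the counts.

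The 6 vehicle-only genes had fold enrichments from 2.91 to 4.69. Fold enrichment is the ratio of the summit pileup, the number of extended tags stacked there, to the local input background, each with 1 added. Ube2d2 reached 4.69 (pileup 21, exact Poisson 95% interval 13.0 to 32.1, −log10 q 5.77), with its summit 13 bp upstream of the TSS. At Usp22 it was 3.65 (22, 13.8 to 33.3, −log10 q 3.87), 31 bp downstream of the TSS. Ube2g2 had 3.56 (23, 14.6 to 34.5, −log10 q 3.87), 100 bp upstream. These were the higher of the 6, and the median over all vehicle peaks was 4.14. Usp25 had 3.39 (18, 10.7 to 28.4, −log10 q 2.58) at 482 bp upstream, in an SP1-rich stretch with 4 SP1 matches. Ube2c had 3.35 (28, 18.6 to 40.5, −log10 q 4.35) at 193 bp upstream of its own TSS and 39 bp upstream of that of Gm11457. Usp36 was lowest at 2.91 (27, 17.8 to 39.3, −log10 q 2.98), 15 bp downstream. Ube2d2 thus stood at the 68.2 percentile of the vehicle list by fold enrichment, and the other 5 below its median.

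Usp31 had the highest fold enrichment of all members in both lists. Its vehicle peak had pileup 48 (35.4 to 63.6), fold enrichment 8.07 and −log10 q 25.2, and its FGF19 peak had pileup 42 (30.3 to 56.8), 8.83 and 23.9. This placed it at the 94.5 percentile of vehicle peaks and the 98.4 percentile of FGF19 peaks. The summits were 332 and 219 bp upstream of the Usp31 TSS, at chr7:128850896-128851316 and chr7:128850778-128851223, and lay in an exon of the gene 1700069B07Rik, whose TSS is also within 1 kb.

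At the other genes of both lists, fold enrichment did not move in 1 direction. At Usp20, which lies beside BC005624, it was 3.12 with vehicle (pileup 32, 21.9 to 45.2) and 5.56 with FGF19 (36, 25.2 to 49.8), and summits were 4 bp apart. At the Zzz3-side peak of Usp33 it was 5.95 (31, 21.1 to 44.0) and 2.94 (27, 17.8 to 39.3). Here the input background was 4.38 tags with vehicle and 8.52 with FGF19, against 9.57 and 5.65 at Usp20. Per 1000000 ChIP tags, the Usp33 peak had pileups of 2.00 and 2.01.

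Among the Ube2 genes in both lists, fold enrichment and pileup moved in opposite directions. Ube2d1 had fold enrichment 3.87 (14, 7.65 to 23.5) with vehicle and 2.92 (20, 12.2 to 30.9) with FGF19, over a background of 2.87 and 6.19. Ube2d3 had 4.27 (36, 25.2 to 49.8) and 3.33 (41, 29.4 to 55.6), over 7.66 and 11.6. Both thus had a lower ratio with FGF19 and a higher pileup per 1000000 tags. Ube2o went the other way, with 3.58 (24, 15.4 to 35.7) and 3.97 (19, 11.4 to 29.7), over 5.99 and 4.04, and with 1.55 and 1.41 per 1000000 tags. For Usp6nl the overlapping pair had 4.07 (19, 11.4 to 29.7) and 4.62 (26, 17.0 to 38.1), and vehicle had a further peak of 4.09 at 335 bp upstream of the TSS.

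Of the 7 pairs, fold enrichment was higher with FGF19 in 4, and pileup per 1000000 tags in 6, though at Usp31 (3.10 and 3.12) and Usp33 (2.00 and 2.01) it was nearly equal. Over the 663 peaks of all genes that overlap 1 to 1, the corresponding shares were 48.6% and 73.6%. The log2 ratio of fold enrichment over the 7 pairs had a median of 0.13 and ranged from −1.02 to 0.83, beside a median of −0.02 over all such peaks. The pileup intervals of vehicle and FGF19 overlapped at every one of the 7 pairs. They are intervals of unscaled counts from libraries of unlike depth, and their overlap is no test of a difference. Whether heights changed was not tested.

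**Figure D3:**
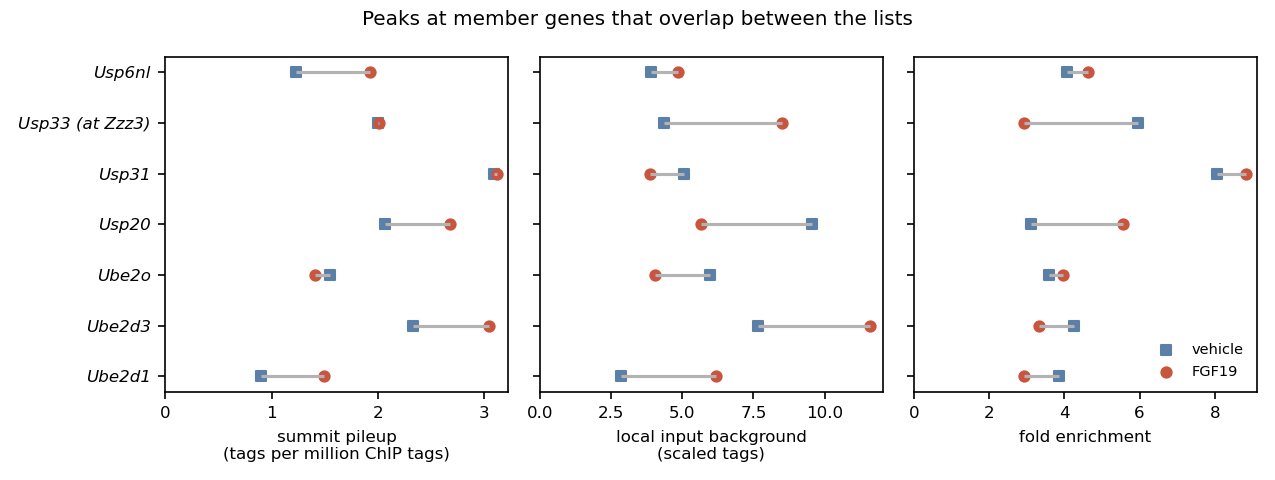
Summit pileup per 1000000 ChIP tags, local input background in scaled tags and fold enrichment (horizontal axes, left to right) at the 7 member genes whose vehicle and FGF19 peaks overlap. Each line joins the vehicle value (square) to the FGF19 value (circle) of 1 gene. Pileup was higher with FGF19 at 6 of 7 genes, by little at Usp31 and Usp33, and fold enrichment at 4 of 7, and the background moved by up to 1.11 on the log2 scale.

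Of the FGF19-only genes with Ube2 names, Ube2v2 was highest, with fold enrichment 6.38 (pileup 22, 13.8 to 33.3, −log10 q 9.34), 194 bp downstream of its TSS, and this was the 94.9 percentile of the FGF19 list. Ube2cbp had 5.13 (24, 15.4 to 35.7, −log10 q 7.68) at a summit 2188 bp upstream of its own TSS and 16 bp from that of Dopey1, and a second peak of 3.40 at its own promoter. Ube2e1 had 4.82 (15, 8.40 to 24.7, −log10 q 4.51) at 120 bp downstream. Ube2v2 is thus the only one of these over 6. Ube2m had 4.77 (24, 15.4 to 35.7, −log10 q 6.96) at 168 bp downstream. Ube2j2 had 4.52 (21, 13.0 to 32.1, −log10 q 5.62) at 29 bp upstream. The other partners in lysine-63 chains stood at the opposite end. Ube2n was lowest at 2.53 (27, 17.8 to 39.3, −log10 q 2.23) at 168 bp upstream, and Ube2v1 had 2.90 (23, 14.6 to 34.5, −log10 q 2.66) at 12 bp upstream. Pileups of the 3 were 27, 23 and 22, and their backgrounds 10.1, 7.27 and 2.60, in the order Ube2n, Ube2v1, Ube2v2.

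Of the FGF19-only Usp genes, the 5 highest lay close together. Usp9x had 4.97 (17, 9.90 to 27.2, −log10 q 5.30) at 169 bp upstream of its TSS. Usp15 had 4.94 (20, 12.2 to 30.9, −log10 q 6.12) at 67 bp downstream. Usp7 had 4.93 (23, 14.6 to 34.5, −log10 q 6.97) at 478 bp upstream of its nearest TSS. These lay between the 79.2 and the 81.2 percentile of the list. Usp12 had 4.78 (25, 16.2 to 36.9, −log10 q 7.27) at 50 bp downstream, and Usp1 had 4.66 (19, 11.4 to 29.7, −log10 q 5.35) at 8 bp upstream, with a second peak of 3.64 at 570 bp upstream. The lowest were Usp32 with 3.21 (32, 21.9 to 45.2, −log10 q 4.93) at 84 bp upstream and Usp49 with 2.62 (28, 18.6 to 40.5, −log10 q 2.60). Usp49 was also the one peak more than 1 kb from a TSS, lying 1080 bp upstream of a start shared by Usp49 and Med20, within an intron of longer Med20 transcripts.

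The remaining FGF19-only genes had fold enrichments between those of the genes named above. Among Ube2 genes they were 4.47 at Ube2z, 4.39 at Ube2q2, 3.61 at Ube2g1, 3.59 at Ube2r2 and 3.55 at Ube2l3. Among Usp genes they were 4.57 at Usp47 (a deubiquitinase of DNA polymerase beta), 4.37 at Usp46, 4.27 at Usp34, which acts on axin in Wnt signalling, 4.19 at Usp54, 3.90 at Usp45 and 3.78 at the shared peak of Usp8 and Usp50.

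**Figure D4:**
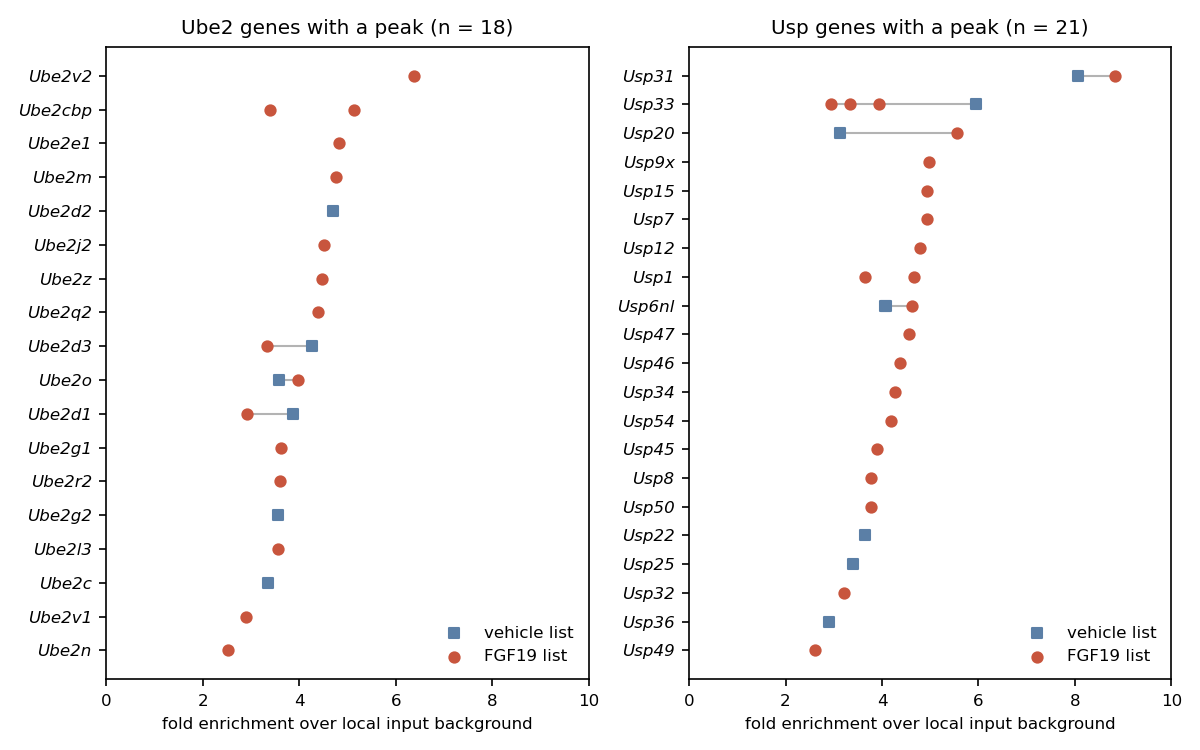
Fold enrichment over local input background (horizontal axis) of every SHP peak within 5 kb of a Ube2 gene (left) or Usp gene (right), with vehicle peaks as squares and FGF19 peaks as circles, and a line where peaks of the lists overlap. Genes are ordered by their highest peak. Usp31 is highest in both lists with 8.07 and 8.83, and Ube2v2 is the highest Ube2 gene with 6.38.

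As a set, the member peaks were of ordinary strength. The 14 vehicle peaks had a median fold enrichment of 3.76 (range 2.91 to 8.07), against 4.14 over all vehicle peaks, and 4 of 14 were above that median. With FGF19 the median of 36 peaks was 4.23 (range 2.53 to 8.83), against 4.05, and 19 of 36 were above it. By family the FGF19 medians were 3.79 for 16 Ube2 peaks and 4.32 for 20 Usp peaks. The median pileup was 23.5 for vehicle and 23 for FGF19 member peaks, against 24 in both full lists.

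Member peaks sat at promoters. All 14 vehicle peaks had their summit within 1 kb of a TSS of some gene (100%, 78.5 to 100), against 72.7% of all vehicle peaks, and 35 of 36 FGF19 peaks did (97.2%, 85.8 to 99.5), against 81.8%. Member peaks had to lie within 5 kb of a gene body. The full lists also hold peaks between genes and over 1 kb from a TSS (82 with vehicle, 179 with FGF19), so the sets are not alike. Among member peaks within 1 kb, the median distance to the TSS was 104 bp in the vehicle list and 138 bp in the FGF19 list, beside 99 and 94 bp for all peaks within 1 kb. Upstream and downstream summits were 9 and 5 with vehicle, and 17 and 18 with FGF19. The Usp49 peak, 825 bp outside the body of Usp49 and in an intron of Med20, was the one farther than 1 kb from a TSS.

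**Figure D5:**
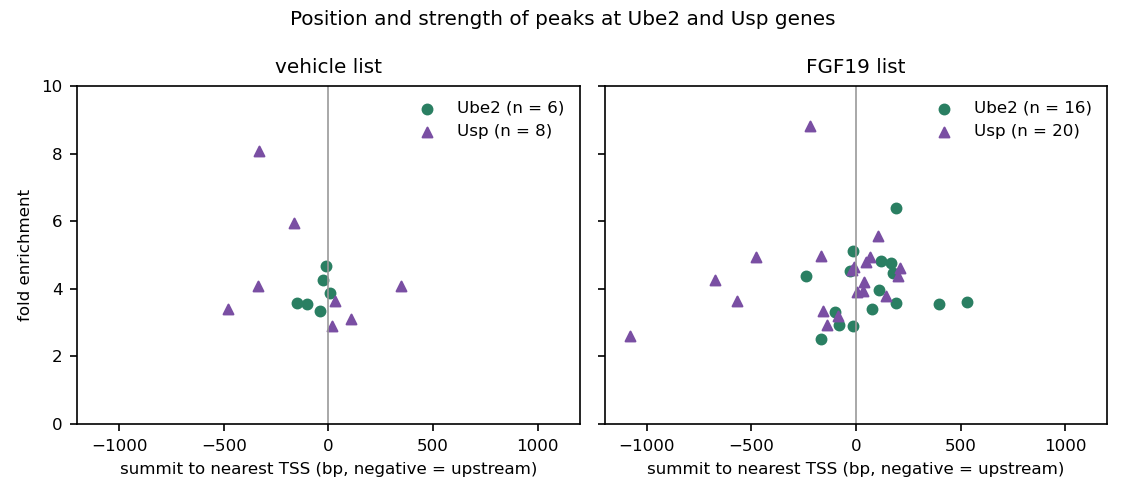
Distance in bp from each summit to the nearest TSS (horizontal axis, upstream negative) against fold enrichment (vertical axis) for peaks at Ube2 genes (circles) and Usp genes (triangles), in the vehicle list (left) and the FGF19 list (right). Most summits lie close to the TSS on either side, and the Usp49 peak at −1080 bp is the one beyond 1 kb.

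The members are longer than most genes, with a median length of 30.4 kb for Ube2 and 50.9 kb for Usp genes against 15.4 kb over all protein-coding genes, and length widens a 5 kb search. In the genes longer than 15.4 kb, a split added after seeing the data, an FGF19 peak lay at 14 of 25 Ube2 genes (56%, 37.1 to 73.3) and 17 of 43 Usp genes (39.5%, 26.4 to 54.4), against 20.1% of all such genes. With vehicle it was 5 of 25 Ube2 genes (20%, 8.86 to 39.1) and 7 of 43 Usp genes (16.3%, 8.12 to 30.0), against 9.30%, which lies inside both intervals. Before the split, the vehicle interval of each family alone (7.87 to 31.9 for Ube2, 6.81 to 25.7 for Usp) also held its background of 7.93%. Whether the vehicle gap changes with length therefore cannot be read from these intervals. Among genes at or under that length, 1 of 11 Ube2 (9.09%, 1.62 to 37.7) and 1 of 8 Usp genes (12.5%, 2.24 to 47.1) had an FGF19 peak, against 12.6% of all. A vehicle peak lay at 1 of 11 (9.09%, 1.62 to 37.7) and 0 of 8 (0%, 0 to 32.4), against 6.55%. With so few shorter genes the intervals are too wide to tell whether members differ from all genes of that length. The members also start in CpG-rich sequence more often: 64 of 87 have an observed to expected CpG ratio of at least 0.6 over 1001 bp at the gene start (73.6%), against 45.6% of all genes. Among CpG-rich starts a peak lay at 20.3% of members with vehicle (12.3 to 31.7) against 13.0% of all, and at 42.2% with FGF19 (30.9 to 54.4) against 28.0%. For vehicle the value of all genes lay inside the interval of the members. Among CpG-poor starts no member of 23 had a vehicle peak (0%, 0 to 14.3), against 3.67% of all, and 6 of 23 had an FGF19 peak (26.1%, 12.5 to 46.5), against 6.51%. This class describes the annotated gene start and not the peak. The FGF19 summits of Usp7 and Usp45, for example, lay 53410 and 9130 bp from that start. In the 201 bp windows at FGF19 member summits the ratio had a median of 0.961 (range 0.358 to 1.28), against 0.864 over all FGF19 peaks. Neither length nor CpG content was tested for its part in the shares above.

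In sequence, the summit windows of members were rich in GC, with a median of 67.2% with vehicle and 73.4% with FGF19, against 63.7% and 68.2% over all peaks. The YY1/SRE core lay in 6 of 36 FGF19 windows (16.7%, 7.87 to 31.9), at Ube2j2, Usp7, Usp15, Usp31, Usp33 and Usp34, against 7.54% of all FGF19 windows. By family it was in 5 of 20 Usp windows (25%, 11.2 to 46.9) and 1 of 16 Ube2 windows (6.25%, 1.11 to 28.3), whose intervals overlap. The Usp33 window is the one at the start of Zzz3. With vehicle it was in 2 of 14 windows, those of Usp31 and Usp33, against 9.75% of all. SP1 matches stood in 6 of 36 FGF19 windows (16.7%, against 14.8%), ETS in 5 (13.9%, against 9.70%) and NF-Y in 3 (8.33%, against 11.1%). The nuclear receptor half-site was in 1 window of 36 (2.78%, against 7.13%) and in none of the 14 vehicle windows. The matches to TGACGTCA (CRE), GCGCATGC (NRF1) and CTCGCGAG (ZBTB33) were 0 in the FGF19 windows, and 0, 1 and 1 in the vehicle windows. The intervals of the FGF19 members held the value of all peaks except for the YY1/SRE core, whose lower end of 7.87% lay just above 7.54%. Within 50 bp of the summit the core was in 3 of 36 member windows (8.33%, 2.87 to 21.8), against 4.03% of all, which lies inside the interval.

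At the gene starts, windows of the same 201 bp length held the YY1/SRE core in 6 of 39 members with a peak (15.4%) and in 7 of 48 without one (14.6%), against 5.72% of all protein-coding genes. The intervals of the 2 member shares, 7.25 to 29.7 and 7.25 to 27.2, were wide and overlapped. At some members the summit lay far from the gene start, as at Usp7 (53410 bp). These shares therefore cannot show whether the core goes with a peak. These are matches of letters and not measured binding of any factor.

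The rest of the pathway, in lists set by function, had 12 of 92 genes with a vehicle peak and 35 with an FGF19 peak, against 7.93% and 16.3% of all protein-coding genes. Of these, 29 were in the FGF19 list only (12.0% of all genes were), 6 in both (4.31%) and 6 in the vehicle list only (3.62%). Among 10 activating enzymes only Uba3 had a peak, and its summit lay at the start of Tmf1. Of 11 genes for ubiquitin and its relatives, Ubb had an FGF19 peak of fold enrichment 4.64, Rps27a and Sumo2 vehicle peaks of 5.09 and 4.69, and Sumo3 and Ufm1 peaks in both.

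Other deubiquitinase families had a peak in 12 of 28 genes, against 19.9% of all genes, and 8 of them were in the FGF19 list only. Bap1, a tumour suppressor that acts on histone H2A, was the highest of these at 6.11, and Cyld, which cuts lysine-63 and linear chains, had 3.14. Cullins and their adaptors had an FGF19 peak in 8 of 14 genes, against 16.3% of all genes, with Skp1a in both lists at 6.08 with vehicle and 5.29 with FGF19. HECT ligases had an FGF19 peak in 7 of 22 genes, against the same 16.3%, and the Herc4 peaks lay at the start of Sirt1. E2 genes with other names had an FGF19 peak in 5 of 7, Aktip, Atg10, Atg3, Birc6 and Cdc34, against 16.3% of all genes. None of them had a vehicle peak, which 7.93% of all genes had, and with so few genes no more is read from this than the count.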

How the data were processed

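The authors sequenced SHP ChIP and input DNA pooled from 3 mice per group, aligned reads to mm9 with Bowtie (version 1.0.0 in the submitters' processing notes, up to 2 mismatches) and called peaks with MACS2 2.0.10.20130501 against each group's own input, at a q-value cutoff of 0.05, keeping 1 tag per position and strand. The deposited signal is the summit pileup, a coverage of extended tags, not scaled because the input was the larger library in both groups. The deposited fold enrichment is a ratio, and the deposited -log10 q-value is as the peak caller gave it. The reads were not analysed here, and some genes counted in the sets are not reported by name.

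Background was computed as (pileup + 1) / fold enrichment - 1. Peaks were set against GENCODE M1 on the same build, within 5 kb of gene bodies, and against 95495 transcript starts. Overlap needed 1 bp. Wilson intervals are given for percentages and exact Poisson intervals for pileups, at 95%, and cover counting error only. Groups came from the sample labels. Each group is 1 library, so no test was made. Members and lists were chosen with earlier results of these data known. Member genes with a peak are named, with full values for vehicle-list genes, the 5 highest and 2 lowest FGF19-only genes of each family and any summit over 1 kb from a TSS. Functions were tested on simulated data, with 7 of 7 planted checks recovered. Alternatives covered reach, overlap, thresholds, list length and motif window. The tools were scipy 1.17.1, pandas 2.3.3, numpy 2.4.6 and matplotlib 3.10.9 under Python 3.11.15.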

Additional observations from a re-analysis of the deposited data

How the results depend on the processing

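Counts of genes with a peak stayed within 1.5 times of the reported count at a reach of 1 or 10 kb, with the gene of the nearest TSS only, and at a q-value cutoff of 0.01. With fold enrichment of at least 4, Ube2 genes with a peak numbered 2 with vehicle and 7 with FGF19, Usp genes 3 with vehicle, genes in both lists 2, in the FGF19 list only 17 and in the vehicle list only 3. With as many FGF19 peaks as vehicle peaks, taken by smallest q-value, 7 Ube2 and 13 Usp genes had an FGF19 peak, against 8.06% of all protein-coding genes. By list, 4 genes were then in both, 16 in the FGF19 list only and 9 in the vehicle list only. With summits at most 100 bp apart, 4 genes shared a peak. For the other counts under these settings the shares of all protein-coding genes are not given here. They are read as counts only, since a stricter setting also lowers the counts of all genes. Among motifs, the vehicle share of NRF1 fell from 7.14% to 0 within 50 bp of the summit and to 0 over the whole peak interval, that of ZBTB33 to 0 within 50 bp, and that of ETS was 28.6% over the whole interval, while with FGF19 SP1 was 33.3% over the whole interval and the half-site 0 within 50 bp. The shares over all peaks in these windows are not given here, and the cause of these moves was not tested. The other 87 alternative values stayed within 1.5 times the count, or inside the interval of the percentage, which is wide. With FGF19 the YY1/SRE core was 8.33% within 50 bp, against 4.03% of all peaks. Over the whole interval it was 30.6%, against 14.1%, while ETS was 27.8% and the half-site 8.33%. Leaving out Ube2cbp and Usp6nl, chosen after seeing the data, gave 14 Ube2 and 17 Usp genes with an FGF19 peak. No replicate could be left out and no paired analysis was possible because each group is 1 pooled library. At pileups of 14 to 48 tags, the counting intervals limit any comparison of heights.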
